A study of Homo sapiens with 12 samples.

Results

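Arginine is encoded by 6 codons that fall into separate boxes of the genetic code, the 4 codons CGA, CGC, CGG and CGT (CGN, where N is any base) and the 2 codons AGA and AGG (AGR, where R is A or G). The windows described here are the reporter variants in which 1 of these codons is the last sense codon before a premature stop codon. They were taken by sequence alone from 10-base windows made of a penultimate codon (bases 1 to 3), the last codon (bases 4 to 6), a stop codon (bases 7 to 9) and the base after it (base 10), with no stop codon in the first 6 bases. The EJC-independent reporter lists 2572 such windows of the 4392 possible and the EJC-enhanced reporter 3165, out of 41955 and 51306 variants in all. Windows with the same other bases but TGG, the tryptophan codon, in place of the stop codon are the controls (904 and 1226 listed).

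The libraries were made from HEK293T cells, an established human embryonic kidney line, which were wild type apart from 1 of the reporter libraries put into a single genomic place by Cre-Lox recombination. Each reporter was measured in 3 libraries from cells given DMSO, the vehicle, and 3 from cells given the inhibitor of SMG1 (SMG1i) at 0.5 µM, both for 24 hours. In the EJC-enhanced reporter an exon junction complex (EJC), a protein mark left on mRNA by splicing, strengthens decay, and the EJC-independent reporter decays without it. All groups come from the same cell line. The labels do not say whether replicates are separate cultures, so p-values apply to these libraries only. The sources used here do not give the genome position of the reporters. The tables hold reporter windows and no endogenous genes, so the cell type could not be checked against marker genes.

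Nonsense-mediated mRNA decay (NMD) removes mRNAs on which a ribosome stops too early. SMG1 is the kinase that phosphorylates the helicase UPF1 to start it, and an SMG1 inhibitor therefore lets its targets accumulate. At a stop codon the finished peptide is still joined to the tRNA of the last codon in the P site of the ribosome, and the release factor eRF1 triggers the hydrolysis of that bond. The boxes of arginine give the same amino acid on different tRNAs, so they allow the codon and its tRNA to vary while the last residue of the peptide stays the same. The series asks how the sequence around the stop codon bears on NMD.

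The response used below is the log2 ratio of a window's RNA with the inhibitor over its RNA with DMSO. It is the log2 fold change of the authors' deposited table with its sign reversed: the numerator is not stated, stop windows are negative as deposited, and the reversed sign takes them to have more RNA under the inhibitor. A larger response is thus taken to mean stronger decay in untreated cells. Values per library are not part of these tables. Errors of a single window are the deposited standard errors of the authors' comparison, and how these were modelled is not stated. Errors of a mean run over windows, which are sequences and not replicates.

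One context, the penultimate codon CCC with the stop codon TGA and a following C, shows what is being compared. It was chosen for its counts only, as the context in which the least abundant of the 6 arginine codons had the highest mean normalized count over both reporters. Capitals mark the last codon, and the windows differ nowhere else.
with CGA: cccCGAtgac
with CGC: cccCGCtgac
with CGG: cccCGGtgac
with CGT: cccCGTtgac
with AGA: cccAGAtgac
with AGG: cccAGGtgac

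In the EJC-independent reporter, the authors' deposited table gives these windows responses of 2.39 ± 0.29 (standard error of the comparison) for CGA, 1.84 ± 0.06 for CGC, 1.75 ± 0.08 for CGG, 1.96 ± 0.06 for CGT, 1.99 ± 0.24 for AGA and 1.93 ± 0.18 for AGG. Both AGR windows thus fell within the range of the CGN windows. In the EJC-enhanced reporter, the authors' deposited table puts the same windows at 2.10 ± 0.27, 2.33 ± 0.27, 2.55 ± 0.34, 2.08 ± 0.39, 2.74 ± 0.48 and 1.78 ± 0.47 in the same order. Here AGA was the highest and AGG the lowest of the 6, with errors that overlap those of the CGN windows. The TGG controls of the CGN windows lay between -0.10 and 0.16 in the EJC-independent and between -0.06 and 0.29 in the EJC-enhanced reporter in the authors' deposited tables. For AGR the EJC-independent controls in the authors' deposited table were farther from 0, with cccAGAtggc at -0.28 ± 0.23 and cccAGGtggc at 1.17 ± 0.77, the latter at a mean count of 40.8. Their EJC-enhanced values in the authors' deposited table were 0.22 ± 0.28 and -0.14 ± 0.29.

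AGR windows were thinly covered, which sets how well the boxes can be compared. The EJC-independent table lists 2105 of 2928 possible CGN stop windows (71.9%) but 467 of 1464 AGR windows (31.9%), and the EJC-enhanced reporter has 2486 (84.9%) and 679 (46.4%). Of these, 2094 and 461 had a mean normalized count of 10 or more in the EJC-independent table and were used, as were 2481 and 669 in the EJC-enhanced table. The median count of the windows used was 244.2 for CGN and 94.2 for AGR in the first reporter, and 150.9 and 52.0 in the second. The median standard error of a single response was 0.33 for CGN against 0.54 for AGR, and 0.55 against 0.80. All 6 codons were present in 95 of 732 contexts of the EJC-independent and 187 of the EJC-enhanced reporter.

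Most arginine stop windows differed between the treatments, and all calls lay in 1 direction. That direction is called higher here because of the reversed sign given above, so it is not a finding, and with the sign as deposited the same calls would be lower. For the EJC-independent reporter the authors' deposited table calls 2128 of the 2555 windows used higher at an adjusted p under 0.05 and 0 lower, beside 84.9% and 0.0104% of all stop windows with a p-value. The EJC-enhanced windows in the authors' deposited table show 2605 calls of 3150 in the higher direction and 0 in the lower, beside 86.1% and 0.00291%. The shares of arginine windows called were thus near the background. By box, the calls in the authors' deposited tables covered 86.4% of CGN and 69.0% of AGR windows in the EJC-independent reporter, and 86.7% and 67.7% in the EJC-enhanced reporter. The lower share of AGR goes with its lower counts and larger errors given above, and their part in that share was not tested. Arginine TGG windows had 27 calls upward and 30 downward among 893 in the authors' deposited table (4.09% and 4.03% among all EJC-independent TGG windows). The EJC-enhanced ones had 40 upward and 13 downward among 1220 in the authors' deposited table (2.76% and 1.38%).

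Over all windows used, the CGN box averaged a response of 1.78 (SD 0.59, 3.44-fold) and the AGR box 1.66 (SD 0.76, 3.17-fold) in the EJC-independent reporter. The EJC-enhanced reporter gave 2.28 (SD 0.73, 4.85-fold) and 2.16 (SD 0.99, 4.47-fold). The mean over all stop windows was 1.72 and 2.29, so the boxes lay on either side of it in the first reporter and both below it in the second. Windows with TGG stayed near 0 in both boxes: -0.01 for CGN and 0.02 for AGR, and 0.04 and 0.01. How counts were scaled between libraries is not stated, and both this level and the folds above depend on it. Against the TGG window with the same other bases, stop codons added 1.81 ± 0.02 after CGN (SE, 1763 pairs) and 1.56 ± 0.06 after AGR (234 pairs) in the EJC-independent reporter. The same TGG window serves every stop codon of its context, here and wherever TGG windows are subtracted below. Pairs thus share controls, and the standard errors of these means are understated in both reporters. A two-sided Wald test of each pair called 1419 CGN and 130 AGR pairs higher and 0 and 1 lower, beside 77.9% and 0.0416% of all such pairs. The EJC-enhanced reporter gave 2.25 ± 0.02 (2401 pairs) and 2.12 ± 0.05 (519 pairs), with 1882 and 287 pairs called higher and 0 lower, beside 78.9% and 0.0216%.

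The single codons did not sort by box. In the EJC-independent reporter CGC and CGT were highest, with mean responses of 1.84 ± 0.02 (SE, 642 windows) and 1.84 ± 0.02 (563 windows). AGA followed at 1.77 ± 0.05 (228 windows), then CGA at 1.72 ± 0.03 (412 windows) and CGG at 1.69 ± 0.03 (477 windows). AGG was lowest at 1.56 ± 0.05 (233 windows). AGA, CGA and CGG are neighbours in this order that lie within 2 standard errors of each other, while AGG stands below CGG by more than that. In the EJC-enhanced reporter CGT (2.33 ± 0.03) and CGC (2.31 ± 0.02) were again highest, CGG (2.23 ± 0.03), AGA (2.23 ± 0.06) and CGA (2.21 ± 0.04) lay together, and AGG was again lowest (2.10 ± 0.05). The middle 80% of AGG windows ran from 0.60 to 2.52 in the first reporter and from 0.95 to 3.35 in the second, so single AGG windows overlap those of every other arginine codon.

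The boxes overlap in codons that end in A or G, and there a window of each box can be set against one that differs only by C or A at base 4. Over 373 such pairs of the EJC-independent reporter, CGR windows averaged 1.68 and AGR windows 1.63, a difference of 0.05 (SD 0.93, 95% interval over pairs -0.04 to 0.15), and CGR was higher in 53.1% of pairs. The EJC-enhanced reporter had 597 pairs with means of 2.19 and 2.17, a difference of 0.02 (SD 1.24, interval -0.08 to 0.12), and CGR was higher in 51.8%. In TGG windows the difference was -0.03 (interval -0.19 to 0.13, 133 pairs) and 0.03 (interval -0.08 to 0.14, 299 pairs). With the difference of the matched TGG windows subtracted, the EJC-independent value was 0.19 (190 pairs). Codons ending in A and in G had opposite signs in that reporter. CGA minus AGA was -0.06 (interval -0.19 to 0.08, 174 pairs) and CGG minus AGG 0.15 (interval 0.02 to 0.28, 199 pairs). The latter was 0.05 with pairs weighted by the inverse of their variance. The EJC-enhanced reporter gave 0.01 (interval -0.14 to 0.16, 284 pairs) and 0.04 (interval -0.09 to 0.17, 313 pairs).

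Each pair was also tested singly, with the same Wald test from the deposited fold changes and standard errors and Benjamini-Hochberg adjustment over all pairs of stop windows that differ only by C or A at base 4. In the EJC-independent reporter 1 arginine pair of 373 was higher with CGR and 0 lower, with 32 at an unadjusted p under 0.05. Over all pairs 0.367% were called higher and 2.76% lower with C. In the EJC-enhanced reporter 0 of 597 were called higher and 1 lower, with 58 at an unadjusted p under 0.05, beside 0.0134% and 0.0403% of all pairs. Among TGG pairs the EJC-independent reporter had 0 calls upward and 2 downward (0.716% and 0.621% of all such pairs), and 0 in the EJC-enhanced reporter (0.0322% in each direction), where 22 had an unadjusted p under 0.05. Divided by their own standard errors, the arginine differences had an SD of 1.13 and 1.17, where 1 is the value for deposited errors alone. The called pair of the EJC-independent reporter is shown because it holds AGG before TGA and G.
with CGG: gtcCGGtgag
with AGG: gtcAGGtgag

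For the EJC-independent reporter, the authors' deposited table gives this pair responses of 2.44 ± 0.21 at a mean count of 515 and 0.50 ± 0.49 at a mean count of 161. Their difference was 1.94 ± 0.53 (adjusted Wald p 0.0154). For the EJC-enhanced reporter, the order in the authors' deposited table was the other way, 1.28 ± 0.61 for CGG and 2.53 ± 0.87 for AGG. The called pair of the EJC-enhanced reporter, ataCGAtaac and ataAGAtaac, had responses of -1.33 ± 1.23 and 6.03 ± 1.05 in the authors' deposited table, at mean counts of 12.6 and 42.0 (adjusted Wald p 0.0112).

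Only in the 2 arginine pairs does a change from C to A at base 4 leave the amino acid as it is, and in the other 14 codon pairs of this kind the residue changes with the base. In the EJC-independent reporter the 16 mean differences of C minus A ran from -0.36 (CCT minus ACT, proline against threonine) to 0.20 (CTG minus ATG, leucine against methionine). CGG minus AGG ranked 2 from the top and CGA minus AGA ranked 8. The 16 differences of the EJC-enhanced reporter ran from -0.10 (CCC minus ACC) to 0.17 (CTG minus ATG), with CGG minus AGG at rank 4 and CGA minus AGA at rank 6. The pairs that turn arginine into serine, CGC minus AGC and CGT minus AGT, gave 0.07 (interval 0.00 to 0.15) and 0.09 (interval -0.00 to 0.18) in the EJC-independent reporter, and 0.00 (interval -0.08 to 0.09) and 0.10 (interval -0.01 to 0.20) in the EJC-enhanced reporter. The arginine pairs thus lay inside the range of the pairs that change the residue in these stop windows. In TGG windows CGG minus AGG was the lowest of the 16 in the EJC-independent reporter (-0.07) and ranked 4 from the top in the EJC-enhanced reporter. CGA minus AGA ranked 5 and 13 from the top there.

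Within the CG box, where no change of base 6 alters the amino acid, codons that end in A or G gave lower responses than those that end in C or T (CGY, where Y is C or T). With the mean of CGA and CGG set against the mean of CGC and CGT in the same context, the EJC-independent reporter gave 1.71 and 1.83, a difference of -0.12 (SD 0.53, interval -0.18 to -0.06, 295 contexts). Before TAA, TAG and TGA alone it was -0.12, -0.12 and -0.13. The EJC-enhanced reporter had -0.06 (SD 0.65, interval -0.12 to 0.00, 453 contexts), and by stop codon -0.02, -0.14 and -0.01, and it was 0.00 with matched TGG windows subtracted. TGG windows gave -0.01 (interval -0.08 to 0.06, 106 contexts) and -0.04 (interval -0.10 to 0.03, 193 contexts). CGR windows also had lower counts, with medians of 160.4 against 347.1 for CGY and 99.1 against 211.3, and the part of counts in the difference was not tested. No single context of the CG box was called by the Wald test in either reporter (35 and 29 at an unadjusted p under 0.05), where 0.11% higher and 0.0274% lower were called over all boxes of the EJC-independent reporter and 0% of the EJC-enhanced reporter. Its TGG contexts had 0 calls too, beside 1.03% and 0.59% over all boxes of the EJC-independent reporter, with 3 and 11 contexts at an unadjusted p under 0.05.

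Codon by codon, CGC exceeded CGG by 0.16 ± 0.03 (SE, 453 pairs) in the EJC-independent reporter, and 4 of these pairs were called higher and 0 lower (0.291% and 0.528% of all pairs with C and G at base 6). The same difference was 0.09 ± 0.04 (572 pairs) in the EJC-enhanced reporter, with 0 called and 43 at an unadjusted p under 0.05 (0% and 0.028% of all pairs). Over all last codons C minus G at base 6 was -0.02 and 0.03. CGG minus CGT was -0.15 ± 0.04 (412 pairs) with 0 called higher and 2 lower, beside 0.158% in each direction, and -0.11 ± 0.04 (556 pairs) with 0 called, beside 0.0295% and 0.0147%, and 37 at an unadjusted p under 0.05.

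CGA minus CGC was -0.10 ± 0.04 (388 pairs, 1 called lower, beside 0.216%) and -0.09 ± 0.04 (527 pairs, 0 called, beside 0%, and 36 at an unadjusted p under 0.05). CGA minus CGT was -0.11 ± 0.04 (356 pairs, 1 called lower, beside 0.231%) and -0.10 ± 0.05 (508 pairs, 0 higher and 2 lower, beside 0.0473% and 0.0789%). Between CGC and CGT, and between CGA and CGG, the differences were smaller. CGC minus CGT was -0.02 ± 0.03 (529 pairs, 0 called, 48 at an unadjusted p under 0.05, beside 0.178% higher and 0.0821% lower) and -0.01 ± 0.04 (642 pairs, 0 called, 44 at an unadjusted p under 0.05, beside 0% and 0.0111%). CGA minus CGG was 0.03 ± 0.05 (329 pairs) and -0.01 ± 0.05 (474 pairs, 1 called higher, beside 0.0355%).

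The AG box is shared with serine, whose codons AGC and AGT (AGY) differ from AGR only at base 6. Serine windows averaged 1.75 for AGC and 1.75 for AGT in the EJC-independent reporter, and 2.29 and 2.20 in the EJC-enhanced reporter. In contexts with all 4 codons, arginine minus serine averaged -0.17 (SD 0.58, interval -0.29 to -0.06, 92 contexts) in the EJC-independent reporter, and -0.31 with matched TGG windows subtracted (36 contexts). The EJC-enhanced reporter gave -0.11 (SD 0.78, interval -0.23 to 0.01, 161 contexts), and 0.01 with counts of at least 50. The differences of the AG box were the lowest of the 14 boxes whose codons are all sense, and that of the CG box, which holds no change of residue, ranked 2 and 4 from the bottom. The median count of AGR was 94.2 against 144.7 for AGY in the first reporter and 52.0 against 85.9 in the second, and the part of counts was not tested. TGG windows gave 0.16 (interval -0.10 to 0.43) and 0.03 (interval -0.10 to 0.16). Among TGG windows the AG box was the highest of the 14 boxes in the EJC-independent reporter and ranked 12 from the bottom in the EJC-enhanced reporter. No single AG context was called in either reporter by the Wald test (6 and 16 at an unadjusted p under 0.05), beside the 0.11% higher and 0.0274% lower over all boxes of the EJC-independent reporter and 0% of the EJC-enhanced reporter.

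Within the AG box, AGA exceeded AGG by 0.32 (SD 1.00, interval 0.13 to 0.50, 114 pairs) in the EJC-independent reporter and by 0.13 (SD 1.31, interval -0.04 to 0.31, 206 pairs) in the EJC-enhanced reporter. With inverse-variance weights the differences were 0.19 and 0.22. AGA was higher in 64.0% and 56.3% of pairs. This difference was not taken in matched TGG windows. Over all TGG windows used, AGA averaged 0.00 ± 0.07 (SE) and AGG 0.03 ± 0.08 in the EJC-independent reporter. The EJC-enhanced TGG means were 0.07 ± 0.07 and -0.04 ± 0.06, in the same direction as its stop windows. Over all last codons, A minus G at base 6 was -0.05 and 0.00. No single AGA and AGG pair passed the Wald test (15 and 23 at an unadjusted p under 0.05), beside 0.1% higher and 0.35% lower among all A and G pairs of the EJC-independent reporter and 0.0355% and 0% of the EJC-enhanced reporter.

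Lysine, the other amino acid with a long basic side chain, is encoded by AAA and AAG, which differ from AGA and AGG at base 5. Lysine windows averaged 1.68 and 1.71 in the EJC-independent reporter and 2.21 and 2.29 in the EJC-enhanced reporter. In matched contexts AGR minus AAR was -0.04 (SD 1.01, interval -0.18 to 0.10, 201 pairs) in the first and -0.18 with matched TGG windows subtracted (89 pairs), where G minus A at base 5 over all codons was 0.24. One pair was called higher with arginine and 0 lower by the Wald test, beside 3.08% and 0.124% of all such pairs. In the EJC-enhanced reporter the difference was -0.15 (SD 1.28, interval -0.28 to -0.02, 385 pairs), with AGA minus AAA at -0.11 and AGG minus AAG at -0.19, where all codons gave -0.04. By the same test 0 pairs were called and 40 had an unadjusted p under 0.05, beside 0.0176% called in each direction.

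The stop codon that followed went with different levels in both boxes of the EJC-independent reporter. CGN windows averaged 1.73 ± 0.02 (SE) before TAA, 1.70 ± 0.02 before TAG and 1.94 ± 0.02 before TGA, and AGR windows 1.61 ± 0.06, 1.58 ± 0.06 and 1.79 ± 0.05. With matched TGG windows subtracted, TGA stayed the highest for CGN (1.76, 1.73 and 1.96 in the same order) but not for AGR (1.604, 1.496 and 1.557, on 87, 74 and 73 pairs). Within a context the same TGG value is subtracted for every stop codon, so the subtraction cannot reorder the stop codons there. The AGR order can change only because the sets of windows differ, and it says nothing about TGA itself. Without the subtraction, TGA was the highest in each of the 6 codons, from 1.78 for AGG to 2.00 for CGT. The levels of AGA were closest together, with 1.75 before TAA, 1.75 before TAG and 1.81 before TGA, and the difference between codons in this respect was not tested. CGN in the EJC-enhanced reporter gave 2.29 ± 0.02, 2.23 ± 0.03 and 2.31 ± 0.03, and AGR 2.18 ± 0.06, 2.14 ± 0.07 and 2.15 ± 0.07. There AGA was lowest before TGA (2.07 ± 0.10, against 2.35 ± 0.09 before TAA), while AGG was highest before it (2.23 ± 0.09, against 2.04 ± 0.08).

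In matched pairs of the EJC-independent reporter, CGR minus AGR was 0.09 before TAA, 0.04 before TAG and 0.03 before TGA, each with an interval that includes 0. Split by base 6, CGG exceeded AGG before TAA by 0.29 (interval 0.06 to 0.52, 72 pairs), while CGA minus AGA was -0.15 (interval -0.38 to 0.07, 58 pairs). Before TGA both were near 0, at -0.00 for G and 0.07 for A. In the EJC-enhanced reporter CGG minus AGG was 0.18 before TAA (interval -0.03 to 0.40, 115 pairs), 0.05 before TAG and -0.15 before TGA. CGA minus AGA was -0.14 before TAA, -0.08 before TAG and 0.25 before TGA (interval 0.00 to 0.50, 95 pairs).

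Before any subtraction of TGG windows, the base after the stop codon went with small differences within CGN. The EJC-independent reporter gave 1.85 ± 0.03 (SE) for A, 1.73 ± 0.02 for C, 1.80 ± 0.03 for G and 1.78 ± 0.02 for T, and the EJC-enhanced reporter 2.28 ± 0.04, 2.27 ± 0.02, 2.25 ± 0.03 and 2.31 ± 0.03. AGR windows gave 1.70 ± 0.11, 1.64 ± 0.06, 1.69 ± 0.09 and 1.65 ± 0.06 in the first reporter and 2.05 ± 0.10, 2.23 ± 0.07, 2.09 ± 0.08 and 2.19 ± 0.07 in the second. With matched TGG windows subtracted the AGR order was another one, 1.48 (26 pairs), 1.67 (116 pairs), 1.69 (37 pairs) and 1.25 (55 pairs) in the first reporter and 1.83, 2.18, 2.00 and 2.24 in the second. The CGN value before A became 1.97 and 2.19. In matched pairs CGR minus AGR was largest before A and G in the EJC-independent reporter, at 0.24 (interval -0.13 to 0.60, 52 pairs) and 0.24 (interval 0.02 to 0.46, 59 pairs), against -0.02 before C and -0.03 before T. The EJC-enhanced values were 0.31 before A (interval 0.02 to 0.59, 82 pairs), -0.06 before C, 0.09 before G and -0.05 before T.

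AGG windows were split further by stop codon and following base, because AGG had the lowest mean in both reporters. The 7-base string AGGTAAG had the lowest mean of the 12 in both, 1.11 ± 0.38 (SE, 7 windows, 0.0242% of all stop windows used) in the EJC-independent reporter and 1.59 ± 0.17 (29 windows, 0.084%) in the EJC-enhanced reporter. AGGTAGG was next in the EJC-independent reporter at 1.16 ± 0.24 (14 windows), and stood at 1.88 ± 0.17 (29 windows) in the other. AGGTGAG, with the stop codon TGA in the same place, gave 1.99 ± 0.15 (19 windows) and 2.55 ± 0.19 (26 windows), the latter the highest of the 12. The other AGG strings lay between 1.38 and 2.03 in the EJC-independent reporter and between 1.87 and 2.42 in the EJC-enhanced reporter. Strings were read in the windows as listed, at bases 4 to 10. The rule that defines the stop windows leaves no other place where such a string could occur.

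In the same contexts CGG exceeded AGG before TAAG by 0.94 ± 0.33 (SE, 6 pairs) in the EJC-independent reporter and by 0.52 ± 0.27 (23 pairs) in the EJC-enhanced reporter. Before TAAA the differences were 0.35 ± 0.45 and 0.57 ± 0.19, before TAGG 0.53 ± 0.28 and 0.39 ± 0.19, and before TGAG -0.02 ± 0.24 and -0.47 ± 0.30. Before TAGA they were 0.87 ± 0.57 (6 pairs) and 0.13 ± 0.44 (12 pairs), and before TGAA -0.12 ± 0.30 and -0.53 ± 0.34. The rest ran from -0.06 to 0.23 in the EJC-independent and from -0.20 to 0.16 in the EJC-enhanced reporter. AGGTAAG was singled out by its low mean, and the same AGG values enter its difference, which is thus no separate result. Counting only windows with counts of at least 50, the mean of AGGTAAG was 1.35 (4 windows) and 1.18 (13 windows). The control AGGTGGG gave 0.08 ± 0.25 and -0.07 ± 0.12. The AGGTAAG windows with a mean count of 50 or more in both reporters are shown, a choice made after their values were seen.
window after CCC: cccAGGtaag
window after CGC: cgcAGGtaag
window after CTC: ctcAGGtaag
window after GTT: gttAGGtaag

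For the EJC-independent reporter the authors' deposited table lists these windows at responses of 1.25 ± 0.24, 1.01 ± 0.32, 0.35 ± 0.66 and 2.78 ± 0.36. Their EJC-enhanced responses in the authors' deposited table were -0.33 ± 0.64, 0.23 ± 1.06, 1.78 ± 0.41 and 2.87 ± 0.71. The window after GTT was the highest of the 4 in both reporters, while the lowest was that after CTC in the first and that after CCC in the second. With CGG in place of AGG, cccCGGtaag stood at 1.49 ± 0.41 and 2.48 ± 0.33, cgcCGGtaag at 2.78 ± 0.56 and 3.34 ± 0.46, and ctcCGGtaag at 1.76 ± 0.28 and 1.78 ± 0.32 in the authors' deposited tables. The partner gttCGGtaag was used in the EJC-enhanced reporter only, where the authors' deposited table has it at 2.29 ± 0.92 (mean count 40.0), below gttAGGtaag. The cccAGGtaag window, at a mean count of 301, was also the lowest AGR window with a mean count of 100 or more in the EJC-enhanced reporter.

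The base before AGG, base 3, gave means of 1.49 ± 0.15 (SE) for A, 1.43 ± 0.08 for C, 1.67 ± 0.12 for G and 1.71 ± 0.10 for T in the EJC-independent reporter. The EJC-enhanced reporter had another order, with 2.49 ± 0.14 for A, 2.05 ± 0.08 for C, 2.09 ± 0.14 for G and 1.95 ± 0.09 for T.

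By penultimate amino acid, CGN windows of the EJC-independent reporter ran from 1.59 ± 0.04 after serine (SE, 234 windows) to 1.98 ± 0.06 after valine (116 windows). CGN windows of the EJC-enhanced reporter ran from 2.00 ± 0.14 after lysine (37 windows) to 2.36 ± 0.06 after alanine (176 windows). The matched difference of CGR minus AGR in the EJC-independent reporter was lowest after cysteine (-0.56, 7 pairs), methionine (-0.50, 1 pair) and isoleucine (-0.27 ± 0.46, 10 pairs). It was highest after aspartate (0.45, 7 pairs), alanine (0.37 ± 0.21, 22 pairs) and glycine (0.36 ± 0.27, 12 pairs). In the EJC-enhanced reporter the lowest were lysine (-1.18, 2 pairs), methionine (-1.06, 2 pairs) and isoleucine (-0.89 ± 0.42, 20 pairs). The highest there were alanine (0.38 ± 0.19, 45 pairs), leucine (0.24 ± 0.13, 77 pairs) and phenylalanine (0.21 ± 0.17, 36 pairs). Its isoleucine value includes the called pair ataCGAtaac and ataAGAtaac (difference -7.36, mean counts 12.6 and 42.0). With inverse-variance weights the isoleucine value was -0.58. Among amino acids with 10 or more pairs, isoleucine was the lowest and alanine the highest in both reporters, on few pairs. Glutamine came next to isoleucine in the EJC-enhanced reporter (-0.60 ± 0.21, interval -1.01 to -0.19, 21 pairs). Several of these values turned sign under another setting. The EJC-independent value after cysteine was 0.23 with inverse-variance weights, 0.54 with counts of at least 50 (1 pair) and 2.63 with matched TGG windows subtracted (2 pairs), and that after glycine was -0.53 with TGG windows subtracted (2 pairs). The alanine value of the EJC-enhanced reporter was -0.01 as a median, and among windows with counts of at least 50 the EJC-independent values were 0.01 after alanine (10 pairs) and 0.25 after isoleucine (2 pairs).

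Where the penultimate codon was arginine too, the difference was -0.03 ± 0.17 (29 pairs) and 0.10 ± 0.19 (47 pairs). A CGN codon followed by another averaged 1.68 ± 0.04 (SE, 152 windows) in the EJC-independent and 2.26 ± 0.05 (178 windows) in the EJC-enhanced reporter. A CGN codon followed by AGR gave 1.68 ± 0.15 (36 windows) and 2.25 ± 0.16 (46 windows), and AGR followed by CGN 1.79 ± 0.14 (32 windows) and 2.41 ± 0.15 (51 windows). These combinations did not differ beyond their errors. A run of 2 AGR codons was measured in 2 windows (mean 0.36) and 10 windows (1.82 ± 0.33).

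Single windows spread far beyond the means of the codons. Among those with counts of at least 100, the authors' deposited table has, for the EJC-independent reporter, gtgCGCtaaa as the highest CGN window (3.67 ± 0.38) and tcaCGTtgat as the lowest (0.01 ± 0.94). Its highest AGR window was gatAGAtgag (3.17 ± 0.34) and its lowest tttAGAtaga (0.43 ± 0.43), so these AGR windows lay within the span of CGN in this reporter. For the EJC-enhanced reporter the authors' deposited table has attCGTtaga (5.87 ± 0.97) and cacCGAtaag (0.07 ± 0.82) as the CGN extremes, and gttAGAtgac (6.25 ± 1.04) and cccAGGtaag (-0.33 ± 0.64) as the AGR extremes. There both AGR extremes lay outside the CGN span, by less than their standard errors. Mean counts pool both treatments, so windows with responses as large as the highest here can have few counts in a single treatment. Counts per treatment are not given.

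The reporters were compared in contexts whose C and A windows were all measured in both. Over 267 arginine contexts CGR minus AGR averaged 0.02 in the EJC-independent and -0.10 in the EJC-enhanced reporter, a difference of 0.11 (SD 1.51, interval -0.07 to 0.30). The Wald test of this difference, adjusted over all C and A contexts, called 1 arginine context with the EJC-independent reporter higher and 0 lower, with 25 at an unadjusted p under 0.05, beside 0.0815% and 0% of all contexts.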

How the data were processed

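RNA of reporter windows was measured in 12 libraries, 3 for each of 2 reporters under DMSO or SMG1i. The authors deposited 1 comparison per reporter and no value per library. Per the file headers, the columns for a window are the mean normalized count (a signal over all libraries of the reporter), the log2 fold change and its standard error, the Wald score, and the p-value before and after adjustment. The submitters' processing notes name DESeq and DESeq2 without a version. The sources used here do not say how reads were assigned to windows or how counts were scaled. The direction of the deposited log2 fold change was reversed as described above.

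The minimum for use was a mean normalized count of 10, taken over the libraries of both treatments. A window with a large response can therefore pass on the counts of a single treatment. Pairs that differ at 1 base were tested with a Wald test from the deposited standard errors, treating the windows as independent, with Benjamini-Hochberg adjustment at 0.05 over all such pairs of a table. Windows with no deposited p-value were left out of tests. Intervals are 95% over pairs (normal approximation) and cover the spread between sequences only. Calculations used Python 3.11.15, pandas 2.3.3, numpy 2.4.6 and scipy 1.17.1, and the tests were tried on simulated data. The windows, comparisons and named contexts were chosen with earlier results of these data known. Named were all 6 codons, each split by stop codon and base 10, AGG by its neighbours, the 3 highest and 3 lowest penultimate amino acids, called pairs, and the extreme windows with a count of 100 or more. Single-base changes at base 6 were added after the data were seen. Alternatives were other count minimums, medians, weights, subtraction of TGG windows, shared contexts and a stricter threshold.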

Additional observations from a re-analysis of the deposited data

Results flagged for a closer look

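Between the reporters, 1 arginine context stood out by the Wald test of the difference itself. The windows ataCGAtaac and ataAGAtaac had responses of 2.58 ± 0.68 and 0.35 ± 1.06 for the EJC-independent reporter in the authors' deposited table, and of -1.33 ± 1.23 and 6.03 ± 1.05 for the EJC-enhanced reporter. CGA minus AGA was thus 2.23 in the first and -7.36 in the second (adjusted Wald p 0.00453). All of these windows had mean counts of 59.8 or fewer, and 0 contexts were called with a mean count of 50 or more.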

How the results depend on the processing

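Of 74 alternative values for the main comparisons, 61 stayed within the interval of the reported value or within 1.5 times the reported count. CGR minus AGR in the EJC-independent reporter was 0.19 after subtraction of matched TGG windows, -0.057 for CGA minus AGA alone and 0.15 for CGG minus AGG alone, and in the EJC-enhanced reporter -0.095 with contexts of both reporters only. After subtraction of TGG windows, AGR minus AGY was -0.31 and AGR minus AAR -0.18 in the EJC-independent reporter, and CGR minus CGY 0.00095 in the EJC-enhanced reporter. The 1 called pair of each reporter gave 0 at an adjusted p under 0.01. The 4-term contrast, CGR minus AGR before the stop codon less the same difference before TGG, called 2 in the EJC-independent reporter. These were tcaCGGtgac with tcaAGGtgac (contrast 2.00) and tgcCGGtagc with tgcAGGtagc (contrast 2.17). Their stop windows stood at 1.14 and 0.58, and at 1.54 and 1.00, so most of each contrast came from the TGG windows. The share over all such contrasts was not worked out. In the EJC-enhanced reporter the contrast called 0. That reporter also had 0 called pairs with a mean count of 50 or more, as had the comparison between reporters. CGR minus AGR after alanine in the EJC-enhanced reporter turned to -0.013 as a median. The causes were not tested. Of 427 alternative values for named codons and contexts, 396 stayed within the interval. No paired analysis was possible because the tables hold no value per library, and for the same reason replicates could not be left out and other size factors or DESeq2 settings could not be run. Depth per library is not known, and the low counts of AGR windows limit every comparison between the boxes.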
